A study of Mus musculus with 24 samples.

Results

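In mouse embryonic fibroblasts (MEF) in which the Yamanaka factors had been induced, 142 genes stood out in the cells that divided fast. A gene was taken when its mean in the 4 fast cycling MEF libraries was at least 50 CPM (counts scaled to a common library total) and at least 6 times the mean plus 0.5 CPM of each of 3 other groups: untreated bulk MEF, slow cycling MEF and induced pluripotent stem cells (iPS). The file holds 23283 genes, so the 142 are 0.61% of them. The same limits were met by 163 genes, of which 21 were left out by symbol, among them all keratins named Krt, desmosome components and the laminin receptor subunits Itga6 and Itgb4. These genes were chosen by their mean CPM in fast MEF, bulk MEF, slow MEF and iPS, so their height in fast MEF against those 3 groups is a description and was not tested.

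RNA was measured in 24 libraries of 6 groups, each library from the cytosolic RNA of 1000 sorted cells, primed with oligo-dT and amplified. Bulk MEF (4 libraries) were untreated fibroblasts in serum medium, labelled slow cycling and unsorted, although the protocol shared by all groups sorts cells into wells. Fast MEF and slow MEF (4 libraries each) came from fibroblasts held in embryonic stem cell medium with LIF and doxycycline. The doxycycline induced the Yamanaka factors Oct4, Sox2, Klf4 and Myc for 6 days, and cells were separated by how far a dye, CFSE, had been diluted by division over 48 hours. The iPS group (4 libraries) was established, factor-independent, free of doxycycline and positive for an Oct4:GFP reporter, and its label calls it fast cycling. Granulocyte monocyte progenitors (GMP), blood progenitors of neutrophils and monocytes, were grown with cytokines, SCF, IL3 and Flt3L among them, and gave 5 fast and 3 slow libraries sorted on CFSE after 24 hours. Bulk and induced MEF thus differed in medium as well as in the factors. Nothing in the labels ties the libraries of a group to different cultures or embryos, and the p-values below measure only how these libraries vary, which may be technical.

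Fibroblasts are mesenchymal cells that lie in collagen matrix and carry few junctions. During induction of the Yamanaka factors many of them take on an epithelial form, with cadherin junctions, before a few reach pluripotency. Stratified epithelia such as the epidermis go further: their cells make a barrier of transglutaminase cross-linked envelopes, lipoxygenase-modified lipids and secreted kallikrein proteases.

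Libraries held 2098846 to 18648132 counts, with GMP the shallowest at up to 4411526, and fast MEF replicate 3 had the fewest counts of the other 16 libraries (4937453). Rn45s and Lars2, genes that collect ribosomal RNA reads, were left out of the totals behind every CPM. They took 3.05% to 11.73% of counts outside GMP and 19.9% to 48.86% in GMP. Markers of the labelled cells were present. The 7 pluripotency markers summed to 2471 to 3226 CPM in iPS, the 6 GMP markers to 7949 to 20873 CPM in fast GMP, and the 9 fibroblast markers to 22613 to 43841 CPM in bulk MEF. Fast MEF held less of the fibroblast list, 2651 to 6254 CPM with replicate 3 the highest, and slow MEF held 48648 to 93569 CPM. Of 6 keratinocyte markers, fast MEF held 2 at 10 CPM or more: Krt14 at 14178, 9516, 15194 and 14622 CPM and Dsg3 at 26.4 to 43.7 CPM. Trp63 had no count in 3 of the 4 fast MEF libraries, and Krt5, Krt15 and Dsc3 stayed near 0. The 5 neuron markers summed to 3213 to 3973 CPM in fast MEF, 275 to 880 CPM in bulk MEF and 951 to 1928 CPM in iPS. Tubb3 alone gave 3078 to 3832 CPM of the fast MEF sum. Mtap2, the only other neuron marker above 10 CPM in every fast MEF library, is itself one of the 142 genes. Rbfox3 was over 10 CPM in replicate 3 alone (60.5 CPM) and Syt1 in replicate 4 alone (30.9 CPM), and Snap25 stayed under 5 CPM. The part of other cell types in the results below was not tested. In bulk libraries, fewer cells of a type and less RNA per cell cannot be told apart.

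The 142 genes together made up 42323, 37184, 50047 and 38882 CPM in fast MEF replicates 1 to 4. Their sum was 1380 to 2408 CPM in slow MEF, 958 to 1254 CPM in bulk MEF and 1719 to 2203 CPM in iPS, so the fast MEF libraries stood far above all 12 others. In 133 of the 142 genes (93.7%) every fast MEF library lay above all 12 libraries of the other 3 groups, while 3.98% of 20307 genes with counts did so. The rule used these levels, and nothing is read from that share. Of the other 9 genes, 3 had 2 fast MEF libraries above the other 12 and 6 had 1.

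Fast MEF means spanned 2 orders of size. They were 1000 CPM or more in 12 genes, 100 to 1000 CPM in 79 and 50 to 100 CPM in 51, with a median of 130 CPM. The medians of the means were 1.56 CPM in bulk MEF, 5.70 CPM in slow MEF and 5.28 CPM in iPS. Bulk MEF had under 1 CPM for 62 of the genes, iPS for 34 and slow MEF for 12, and 8 genes were under 1 CPM in all 3. The nearest group, the one with the smallest fold below fast MEF, was slow MEF for 72 genes, iPS for 52 and bulk MEF for 18. The smallest fold had a median of 12.9. CPM takes no account of transcript length, so levels are compared between libraries and not between genes.

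**Figure D1:**
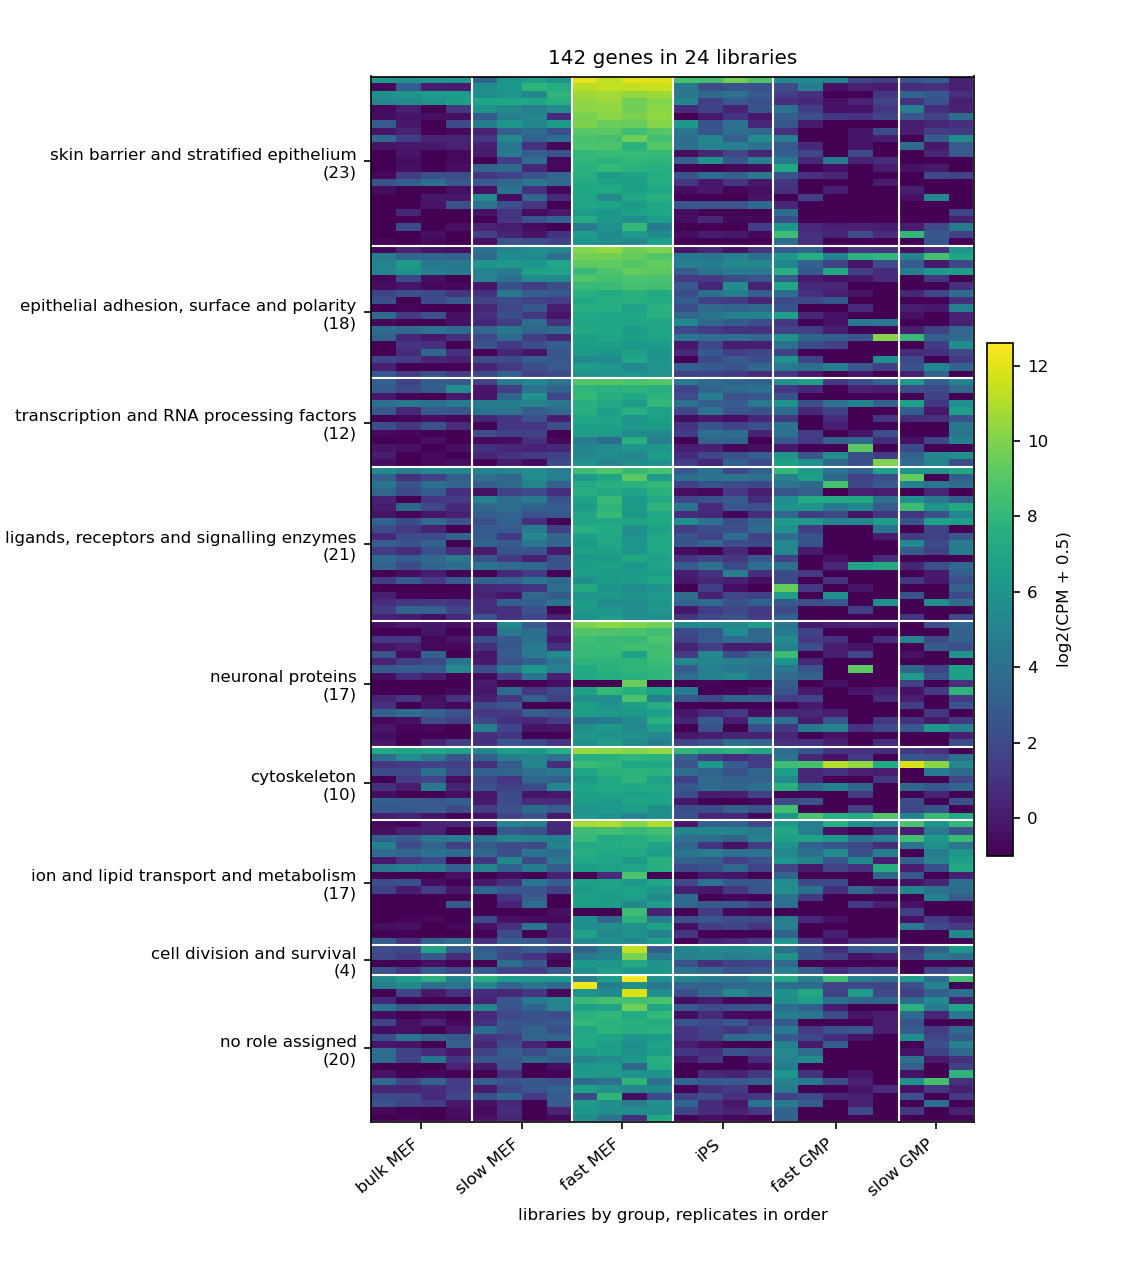
Level of the 142 genes (rows, ordered by role and then by fast MEF mean) in the 24 libraries (columns, grouped), as CPM on a log colour scale. The 4 fast MEF columns are bright in most rows, bulk MEF, slow MEF and iPS are dark in most rows, and scattered rows are bright in single GMP libraries.

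The limits cut a continuous range. The 3 genes nearest inside the fold limit were the forkhead factor Foxk1 (6.07-fold), Wwc1 (6.08-fold) and Reep1 (6.18-fold). Just outside it lay Tpcn1 (5.98-fold), the retinoic acid binding protein Crabp2 (5.96-fold) and 6430548M08Rik (5.92-fold). At the level limit, Hopx (51.5 CPM), Nfatc2 (55.0 CPM) and Nfe2l3 (55.3 CPM) were nearest inside, and Nt5e (49.99 CPM), Rffl (49.3 CPM) and Mall (48.8 CPM) nearest outside.

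To show the start of genes that were high in every fast MEF library, the 250 bases before a RefSeq start site are printed for 4 of them. The table holds 2 windows each for Crip2 and Gata2, and the first listed is shown and searched. They were the genes with the highest fast MEF means among those with a tabulated promoter, whose highest library was at most 1.5 times the lowest. Coordinates are from RefSeq on build GRCm38.p6, while the counts were made on mm9. Crip2 lies at chr12:113139986-113140235, Ly6g6c at chr17:35067075-35067324, Gata2 at chr6:88193641-88193890 and Dpysl5 at chr5:30711314-30711563, all on the plus strand. Capitals mark a TATAAA match.
Crip2: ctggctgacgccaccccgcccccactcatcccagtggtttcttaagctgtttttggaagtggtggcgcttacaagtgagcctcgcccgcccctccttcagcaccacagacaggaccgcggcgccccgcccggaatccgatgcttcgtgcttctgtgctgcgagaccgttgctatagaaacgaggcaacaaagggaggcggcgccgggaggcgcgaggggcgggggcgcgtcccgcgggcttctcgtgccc
Ly6g6c: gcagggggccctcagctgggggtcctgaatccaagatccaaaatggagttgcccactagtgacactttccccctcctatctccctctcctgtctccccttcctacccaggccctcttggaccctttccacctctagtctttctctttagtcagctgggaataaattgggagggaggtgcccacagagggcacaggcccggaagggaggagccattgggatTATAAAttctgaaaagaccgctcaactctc
Gata2: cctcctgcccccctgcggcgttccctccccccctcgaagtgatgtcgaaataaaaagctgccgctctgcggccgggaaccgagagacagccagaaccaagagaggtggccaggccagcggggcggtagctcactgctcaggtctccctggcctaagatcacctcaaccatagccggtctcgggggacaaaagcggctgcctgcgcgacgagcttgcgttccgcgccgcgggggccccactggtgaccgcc
Dpysl5: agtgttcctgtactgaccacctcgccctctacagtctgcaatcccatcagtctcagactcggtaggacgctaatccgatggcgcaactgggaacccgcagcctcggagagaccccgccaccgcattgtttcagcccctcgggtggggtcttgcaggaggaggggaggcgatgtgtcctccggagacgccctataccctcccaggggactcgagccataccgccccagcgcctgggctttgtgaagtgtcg
Motifs were searched as letters on both strands. They were AP-1 (TGANTCA), TEAD (GGAATG), Grhl (AACCGGTT), AP-2 (GCCNNNGGC), Klf (GGGTGTGG), the octamer ATGCAAAT, the E-box CACGTG and the TATA box TATAAA. In the 4 windows shown only TATAAA was found, in Ly6g6c, with its first base at -30 from the start. Among 27025 RefSeq promoter windows of that length, 13% held TATAAA, 6.87% the AP-1 letters, 12.6% TEAD, 13.6% AP-2, 3.19% Klf, 6.05% the E-box, 1.61% the octamer and 0.122% Grhl. A match is a description of the letters and not a bound site. A promoter was tabulated for 102 of the 142 genes (71.8%), too few for a motif count over them.

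Skin barrier and stratified epithelium genes formed the largest role group, with 23 members that summed to 14456 to 16597 CPM in fast MEF, 419 to 844 CPM in slow MEF, 197 to 279 CPM in bulk MEF and 579 to 971 CPM in iPS. The highest was Sfn, which encodes stratifin (14-3-3 sigma), an epithelial adaptor and cell cycle brake, at 4568, 2596, 3972 and 4054 CPM in fast MEF replicates 1 to 4. Its means were 71.3 CPM in bulk MEF, 61.1 CPM in slow MEF and 518 CPM in iPS, so iPS was nearest, 7.33-fold below. Nccrp1, an F-box-associated protein of squamous epithelia, had 2319, 2582, 2609 and 2957 CPM. All 4 fast MEF libraries lay far above the slow MEF libraries, which held 49.2, 69.4, 226 and 169 CPM, and bulk MEF held 0.107 to 8.01 CPM. Tgm2, the tissue transglutaminase that cross-links proteins, had 1618, 1690, 1335 and 1632 CPM, against means of 96.9 CPM in slow MEF and 14.1 CPM in iPS.

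Several enzymes and surface proteins of the barrier were near 0 in bulk MEF. Aldh3a1, the aldehyde dehydrogenase abundant in cornea, was at 1209, 1264, 848 and 1155 CPM in fast MEF and at 0 to 1.73 CPM in bulk MEF. Ly6g6c, a GPI-anchored Ly6 family protein, was at 924, 1210, 959 and 1281 CPM and at most 39.3 CPM in any library of the other 3 groups. The skin kallikrein protease Klk14 was at 963, 726, 707 and 1126 CPM. Fast MEF replicate 3 was the lowest of the 4 for Aldh3a1 and Klk14, yet no fast MEF library of these 3 genes came near the other groups. Anxa8, a calcium-dependent membrane binding annexin, had 1291, 1507, 846 and 1087 CPM, and slow MEF was nearest with a mean of 145 CPM. Its log2 fold change in slow over bulk MEF was 1.10 ± 0.35 (SE), so Anxa8 was not near 0 in bulk MEF.

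Genes of the lipid barrier and the cornified envelope were also among the members. Cyp4f39, a fatty acid hydroxylase of the epidermal ceramide pathway, held 257, 300, 286 and 301 CPM, one of the most even members. Alox12b, the lipoxygenase that oxidises those ceramides, held 167, 80.1, 46.0 and 94.1 CPM, and its neighbour Alox8 held 90.9, 44.3, 80.5 and 47.9 CPM. Both lay above every bulk MEF, slow MEF and iPS library. Evpl (envoplakin, a scaffold of the cornified envelope) held 245, 207, 253 and 229 CPM, and its nearest group was iPS at 27.4 CPM. Trim29, a tripartite motif protein of basal epithelia, held 91.4, 72.7, 111 and 125 CPM and at most 1.64 CPM in any library of the other 3 groups, a smallest fold of 88.6. The calcium-binding pair S100a14 (129 ± 18.9 CPM, SD, n = 4) and S100a16 (134 ± 32.9 CPM, SD, n = 4) also sat here, as did the basement membrane protein Lad1.

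Adhesion, surface and polarity genes of epithelia numbered 18, and in none of them was the highest fast MEF library over 3 times the second highest. Mal, a proteolipid that sorts proteins to the apical membrane, was highest at 1129, 1397, 840 and 1004 CPM, against at most 46.6 CPM in slow MEF and under 2 CPM in every bulk MEF and iPS library. Cd24a, a mucin-like surface antigen, held 829, 812, 640 and 481 CPM. Pvrl1, the junction protein nectin-1, held 608, 619, 513 and 645 CPM, and all fast MEF libraries exceeded the slow MEF maximum of 125 CPM. The recycling endosome adaptor Rab11fip5 had 294, 465, 658 and 583 CPM and a smallest fold of 6.65, close to the limit, which it missed without replicate 3. Msln (mesothelin) had 487, 388, 425 and 411 CPM. The 5 members with the most even fast MEF libraries included 3 of this group. These were the glycosyltransferase B3gnt3 (126 ± 3.36 CPM), the adhesion receptor Cxadr (62.8 ± 3.88 CPM) and the planar polarity cadherin Celsr2 (115 ± 10.5 CPM; SD, n = 4 each). The other 2 were Plek2 and Cyp4f39. Bspry, an epithelial cytoplasmic protein, held 84.5, 72.7, 106 and 64.5 CPM.

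The 12 transcription and RNA processing factors had a median fast MEF mean of 101 CPM. Gata2, a zinc finger factor of blood, trophoblast and neurons, was highest at 504, 506, 430 and 525 CPM, and at most 38.5 CPM in a slow MEF library. Tead4, the Hippo pathway partner of Yap, held 238, 207, 231 and 188 CPM. Ehf, an ETS factor of epithelia, held 128, 121, 69.5 and 107 CPM. Its 12 libraries in the other 3 groups stayed at or under 4.97 CPM, so the groups were far apart. Esrp2, which splices epithelial forms of transcripts, held 109, 109, 76.9 and 84.4 CPM and lay 23.4-fold above its nearest group. Hopx, a small homeodomain protein, had 63.1, 32.2, 53.7 and 57.0 CPM. Bhlha15 had 27.1, 12.8, 182 and 26.1 CPM and so drew most of its mean from replicate 3.

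Ligands, receptors and signalling enzymes numbered 21. Eef2k, the kinase that slows translation elongation, was highest at 333, 485, 271 and 399 CPM, 10.0-fold above its nearest group. The receptor Lgr6, a marker of skin stem cells that binds R-spondins, held 105, 111, 70.8 and 137 CPM and at most 5.39 CPM in the other 3 groups. Among ligands, the natriuretic peptide gene Nppb held 77.2, 80.5, 154 and 111 CPM and Pdgfb 78.9, 74.3, 47.1 and 67.1 CPM. All 4 fast MEF libraries of both ligands lay above the other groups. The kisspeptin receptor Kiss1r held 152, 64.2, 46.7 and 59.8 CPM and no count in bulk MEF. Tnfrsf13c, the BAFF receptor, held 125, 283, 72.4 and 144 CPM, with replicate 2 highest, as it was for the receptor adaptor Arrb1 (117, 293, 79.4 and 148 CPM). This role group had the lowest median smallest fold of the 9, 10.0.

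Neuronal proteins numbered 17, with a median smallest fold of 17.5. Nefl, the light neurofilament subunit, held 968, 1249, 1062 and 805 CPM in fast MEF. Its iPS libraries held 36.3 to 89.3 CPM and its bulk MEF libraries under 0.45 CPM. Dpysl5, a collapsin response protein of growing axons, held 481, 464, 426 and 349 CPM, above every other library outside GMP (at most 48.4 CPM). Avil, the actin binding protein advillin of sensory neurons, held 282, 289, 355 and 346 CPM, and the synaptic scaffold Homer2 held 350, 293, 271 and 425 CPM. Mtap2, the dendrite microtubule protein Map2, held 93.8, 79.6, 74.0 and 99.4 CPM. Cacng5, a subunit linked to calcium channels, had 761 CPM in replicate 3 and no count in the other 3 fast MEF libraries. Only 1 of the 4 fast MEF libraries held it.

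**Figure D2:**
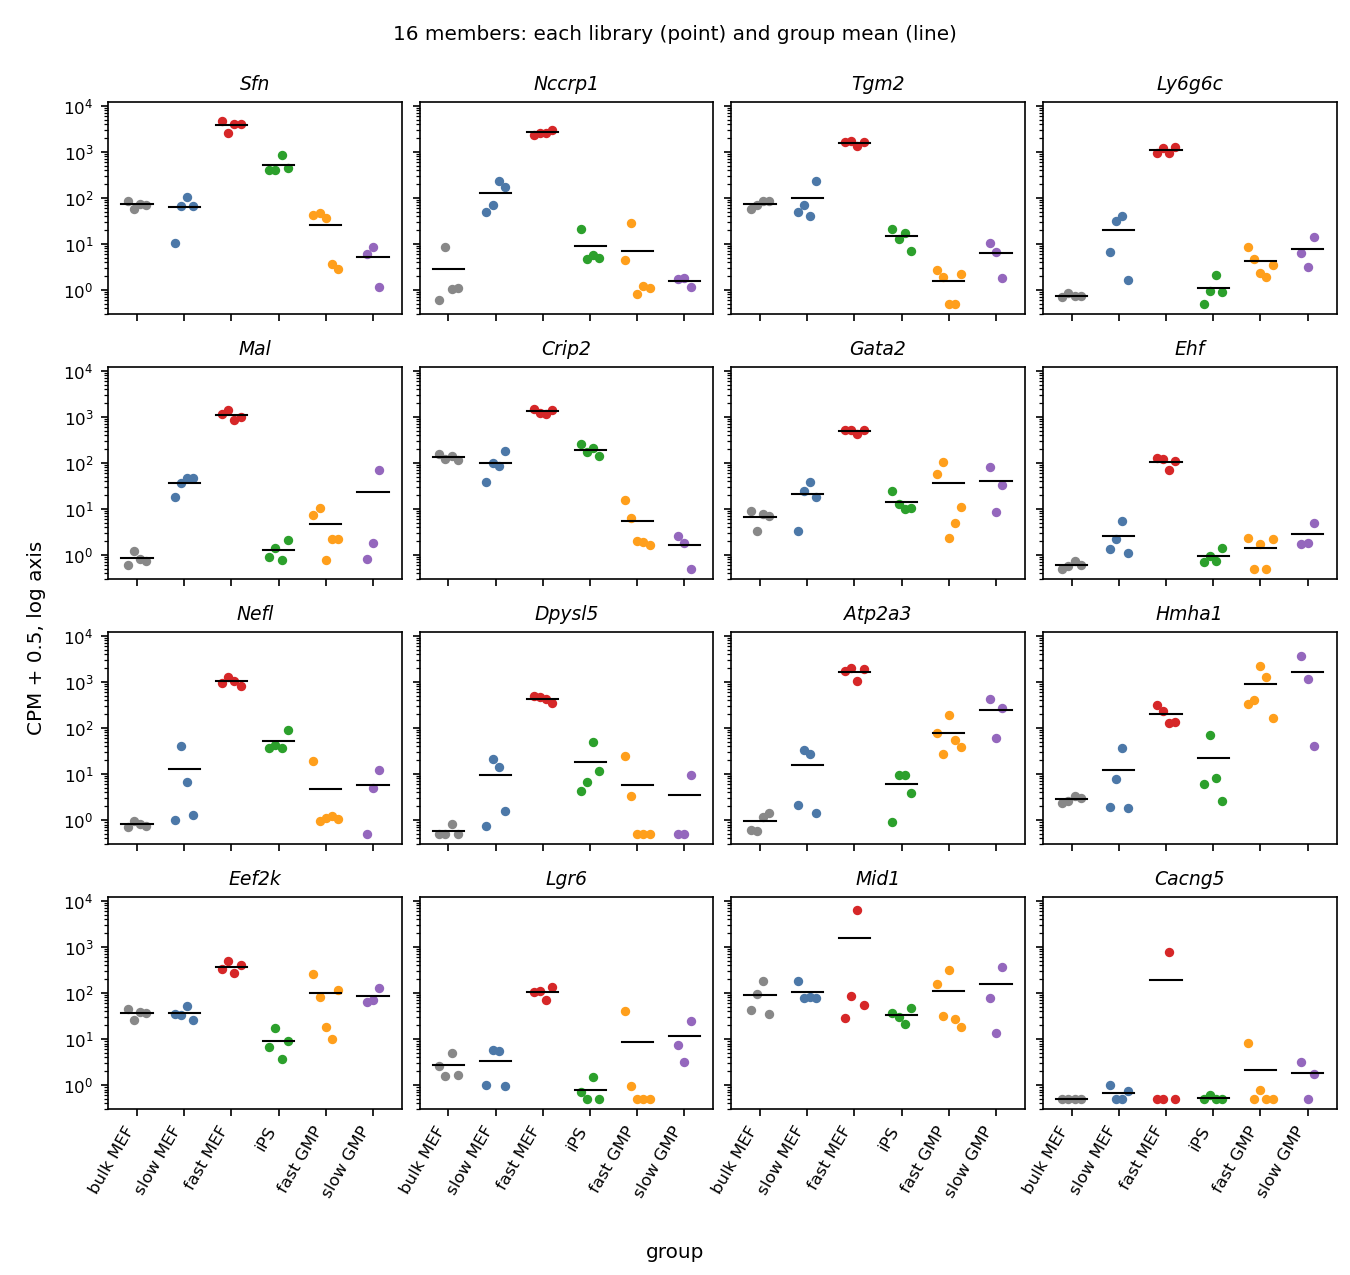
CPM plus 0.5 (log axis) of 16 of the genes in each library of bulk MEF, slow MEF, fast MEF and iPS, 1 panel per gene, each point a library. Fast MEF points lie above all others in most panels, while in Cacng5 and Mid1 only replicate 3 does (761 and 6229 CPM).

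The cytoskeleton group had 10 members. Crip2, a LIM domain protein, held 1441, 1228, 1134 and 1409 CPM, with 192 CPM in iPS as the nearest mean. Plek2, a pleckstrin family protein that acts on actin, held 107, 113, 107 and 117 CPM (111 ± 4.84 CPM, SD, n = 4), almost the same in the 4 libraries. The formin Fhdc1 held 101, 84.7, 129 and 116 CPM, and it was one of the genes whose nearest group was bulk MEF. Hmha1, a GTPase activating protein of blood cells now named Arhgap45, held 314, 238, 126 and 136 CPM.

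Ion and lipid transport and metabolism held 17 members. Atp2a3, the SERCA3 calcium pump, was highest at 1697, 1952, 1049 and 1924 CPM. Its nearest group was slow MEF at 15.5 CPM, a smallest fold of 103. Slc4a11, a bicarbonate transporter family member of corneal endothelium, held 320, 368, 302 and 360 CPM. Gm2a, the activator of ganglioside breakdown in lysosomes, held 275, 161, 172 and 227 CPM. Slc4a11 and Gm2a were separate from all other libraries outside GMP. Ano4 and Kcne1l, by contrast, had 436 and 324 CPM in replicate 3 and no more than 1.17 and 0.759 CPM in replicates 1, 2 and 4.

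Cell division and survival had 4 members, and 2 of them turned on replicate 3. Wee1, the kinase that holds back mitotic entry, had 9.49, 23.1, 2591 and 6.72 CPM. Without replicate 3 its level sat under that of iPS (42.0 CPM). Spag5, a spindle protein, had 23.3, 34.5, 894 and 21.8 CPM. The phosphatase Cdc25b, which starts mitosis, held 51.2, 102, 73.8 and 74.4 CPM and the caspase inhibitor family member Birc7 held 86.3, 64.6, 148 and 61.0 CPM. A further 20 genes were given no role, among them Pi16, Fetub and the long non-coding RNA Miat.

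The fast MEF libraries did not weigh equally in these means. In 36 of the 142 genes (25.4%) the highest library was at most 1.5 times the lowest, near the 25.6% among all 3610 genes with a fast MEF mean of 50 CPM or more. At most 2 times was met by 83 (58.5%, against 59.4%). At the other end, the highest library was over 3 times the second highest in 17 genes (12%, against 3.24% of the 3610). In 14 of those 17, and in 83 of the 117 such genes among the 3610, the library was fast MEF replicate 3. That library had the lowest total and the highest fibroblast marker sum of the 4, and the part of either was not tested. Among the 17 were Ano4, Kcne1l, Cacng5, Mid1, Sh3tc1, Wee1, Spag5, Ammecr1, Atxn3, Fgf13, Bhlha15, Pnpla3 and Capn5 in replicate 3, 1110018G07Rik in replicate 1, Gbas in replicate 2 and Kif5c in replicate 4. Mid1, a microtubule-bound ubiquitin ligase, had 27.5, 86.9, 6229 and 55.7 CPM. Its mean of 1600 CPM is therefore the level of 1 library, since the other 3 lay below the means of bulk MEF (88.4 CPM) and slow MEF (104 CPM). The gene 1110018G07Rik had 5072 CPM in replicate 1 and 20.9 to 56.2 CPM in the others, and Sh3tc1 had 3683 CPM in replicate 3 and 46.8 to 63.1 CPM in the others. For these 17 genes the label of high in fast MEF rests mainly on 1 library.

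**Figure D3:**
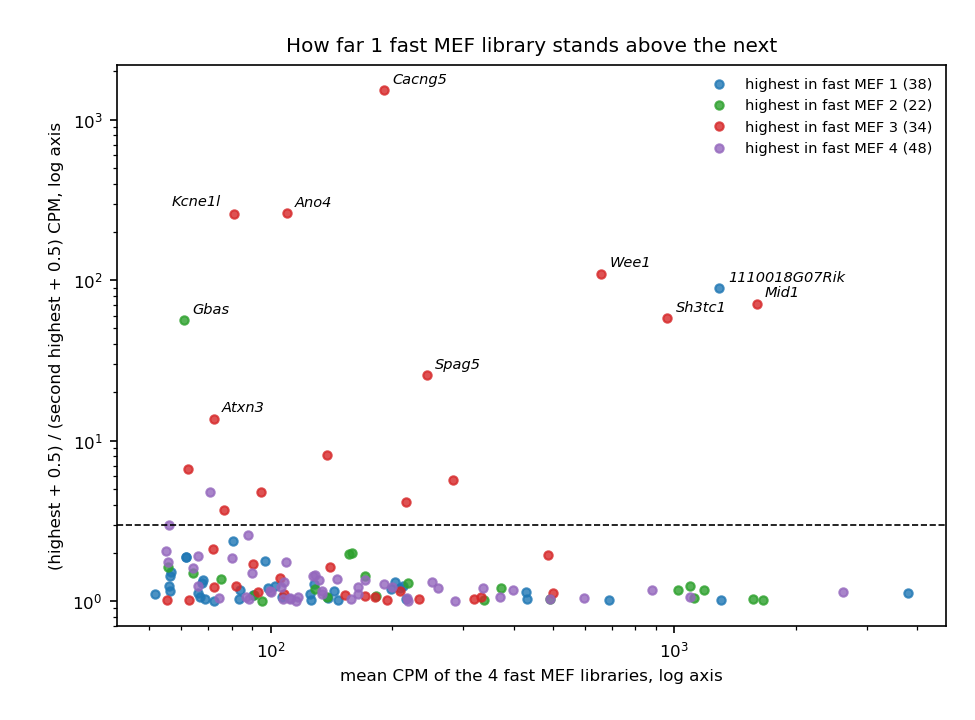
Highest over second highest fast MEF library, each plus 0.5 CPM (log y axis), against mean fast MEF CPM (log x axis) for the 142 genes, coloured by the library that was highest. Of the 17 genes above the dashed line at 3, 14 were highest in replicate 3.

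Of the 142 genes, 109 also met both limits when any 1 of the 4 fast MEF libraries was left out. Their sum was 30825 to 35958 CPM in fast MEF and 691 to 800 CPM in bulk MEF, and in each of them all 4 fast MEF libraries lay above the 12 others. Leaving out replicate 3 removed 15 genes, among them Mid1, Wee1, Cacng5, Ano4 and Rab11fip5. The next results give the value over these 109 beside that over all 142.

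Slow MEF were compared with bulk MEF to see whether the genes were already off the bulk level in induced cells that divided slowly. The rule set no order between these groups, but it capped the mean of each against fast MEF. All genes, given beside the members, carry no such cap, so the shares are a description. The slow MEF mean was the higher of the 2 in 114 of the 142 genes (80.3%, against 64.6% of 18670 genes with counts), and in 91 of the 109. In 33 genes (23.2%) all 4 slow MEF libraries lay above all 4 bulk MEF libraries, against 9.2% of 18670. With edgeR's quasi-likelihood test, 86 of the genes had counts enough to be tested. A gene near 0 in bulk MEF had enough only through slow MEF, where it was high. The shares called higher and the median below are thus not independent of this filter on counts. Among the 86 genes 9 were higher in slow MEF (10.5%, against 5.51% of all 11253 tested) and 1 was lower (1.16%, against 4.99%), all 10 among the 109. The median log2 fold change was 0.76 over the 86 genes and 0.03 over all tested. At an unadjusted p under 0.05 there were 21 of the 86, of which 18 were higher, against 2953 of all 11253. In either direction 11.6% of the 86 passed the adjusted threshold, against 10.5% of all tested. The total of 10 changed with the setting, as did the number of genes tested. DESeq2 called 37 of 142 higher and 2 lower (1387 and 1050 of all 18672). Without a filter on low counts 21 of 142 were higher and 0 lower (557 and 531 of 18672). With all 24 libraries in the fit 6 of 142 were higher and 0 lower (38 and 18 of 15813). Without slow MEF replicate 1, 22 of 103 were higher and 0 lower (459 and 416 of 11592). The counts by role were 3 higher of 10 tested barrier genes, 2 of 13 adhesion genes, 2 of 17 signalling genes, 1 of 9 neuronal genes and 1 of 13 without a role.

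Mal had 0.107, 0.712, 0.338 and 0.231 CPM in bulk MEF and 17.4, 35.2, 46.6 and 45.6 CPM in slow MEF. Every slow MEF library lay above every bulk MEF library, and the log2 fold change was 6.42 ± 0.70 (SE; edgeR adjusted p = 0.000415). Aldh3a1 had 0.107, 0.623, 0 and 1.73 CPM in bulk MEF and 65.4, 41.3, 26.0 and 48.1 CPM in slow MEF, again without overlap (6.00 ± 0.95, edgeR adjusted p = 0.00323). Prrg3, a transmembrane Gla protein, had 0 to 0.461 CPM in bulk MEF and 4.45 to 14.7 CPM in slow MEF (4.92 ± 0.96, edgeR adjusted p = 0.00861). Nccrp1, whose slow MEF values are given above, rose by 5.49 ± 1.12 (edgeR adjusted p = 0.0108). Those 4 genes passed in all 13 other settings tried.

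Tnfrsf13c rose by 4.11 ± 0.80 (edgeR adjusted p = 0.00879), from 0.089 to 0.692 CPM in bulk MEF to 4.65 to 9.23 CPM in slow MEF. Msln rose by 4.83 ± 1.15 (edgeR adjusted p = 0.0218), from 0 to 3.38 CPM to 15.3 to 42.9 CPM. The groups of both genes did not overlap. Tnfrsf13c failed only in the fit of all 24 libraries (adjusted p = 0.0584), and Msln in that fit and when library 3 of bulk MEF or of slow MEF was left out (adjusted p up to 0.0541). Klk14 (4.18 ± 1.03, edgeR adjusted p = 0.0256), Avil (4.55 ± 1.14, 0.0272) and Arrb1 (3.89 ± 1.01, 0.0314) completed the 9, and failed in 5, 6 and 7 of the 13 settings. Klk14 failed when bulk MEF library 2 or 4 or slow MEF library 2 or 4 was left out. For Avil these were bulk MEF libraries 1, 3 and 4 and slow MEF library 3, and for Arrb1 bulk MEF libraries 1 and 3 and slow MEF libraries 1, 2 and 3. The one lower gene, Fhdc1, had 8.79, 7.66, 5.86 and 8.99 CPM in bulk MEF and 0.502, 3.46, 1.12 and 1.05 CPM in slow MEF (-2.50 ± 0.73, edgeR adjusted p = 0.0491). It passed in 3 of 13 settings (adjusted p up to 0.268), failing without any 1 bulk MEF library and without slow MEF replicate 1, 3 or 4. The keratinocyte marker sum was also higher, at 1.61 to 12.8 CPM in bulk MEF with 0 of 6 genes at 10 CPM and at 41.7 to 669 CPM in slow MEF with 2 of 6. These were Krt14 and Krt15, the latter in replicate 3 alone (86.9 CPM). Krt5, Trp63, Dsc3 and Dsg3 were at most 1.92 CPM in slow MEF. Krt14 carried the sum at 39.3, 220, 172 and 669 CPM in slow MEF. It had itself met the limits of the rule and was left out by symbol. The part of keratinocyte-like cells in these differences was not tested. All 9 higher genes stayed far under their fast MEF levels, which the rule required of every member, so nothing is read from it.

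**Figure D4:**
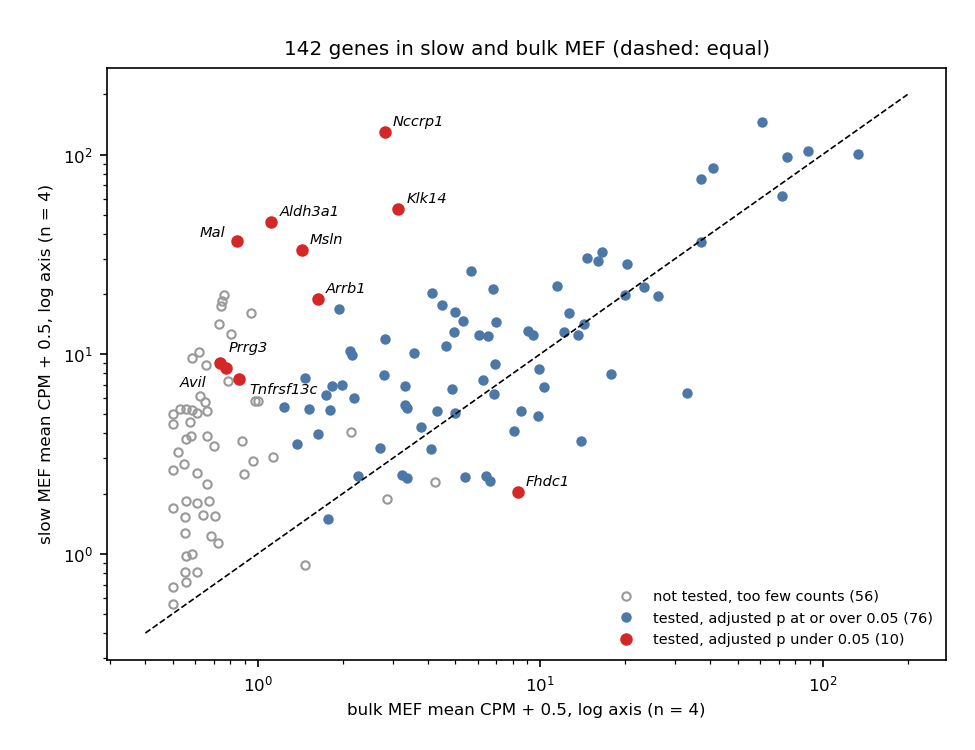
Mean slow MEF CPM against mean bulk MEF CPM (log axes, 0.5 added) for the 142 genes, coloured by edgeR call: 10 passed, 76 were tested and did not pass and 56 were not tested. Most points (114) lie above the line of equal means.

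The iPS group was compared with bulk MEF in the same way, the end point of reprogramming against its start. Here too the rule capped both means of the members, and not those of all genes. A gene near 0 in bulk MEF was tested only through its iPS counts, so the shares called higher are not independent of that filter. The iPS mean was higher than the bulk MEF mean in 100 of the 142 genes (70.4%, against 61.2% of 18296). Of 97 genes tested with edgeR, 25 were higher in iPS (25.8%, against 24.1% of 11736) and 18 lower (18.6%, against 23.3%), 43 in all, while 47.4% of all genes were called in either direction. Over the 109 genes 73 were tested, with 18 higher and 11 lower. The median log2 fold change was 0.83, against 0.10 over all genes tested. By role, neuronal genes gave 6 higher and 1 lower of 11 tested, adhesion genes 4 and 1 of 15, signalling genes 2 and 5 of 16 and barrier genes 4 and 3 of 12. The difference between roles was not tested.

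Nefl had 0.214, 0.445, 0.338 and 0.231 CPM in bulk MEF and 36.3, 43.0, 36.3 and 89.3 CPM in iPS, with no overlap (log2 fold change 7.01 ± 0.59, edgeR adjusted p = 1.7e-05). Lad1 had 0.322 to 0.692 CPM in bulk MEF and 15.3 to 31.2 CPM in iPS (5.28 ± 0.58, edgeR adjusted p = 7.4e-05). Sfn had 83.7, 56.4, 74.7 and 70.2 CPM in bulk MEF and 397, 392, 843 and 439 CPM in iPS (2.59 ± 0.33, edgeR adjusted p = 0.00018). It was the gene with the highest iPS level of the 142, at all 4 iPS libraries above all bulk MEF libraries. Slc4a11 rose from 0 to 0.676 CPM to 25.2 to 36.9 CPM (6.08 ± 0.79, edgeR adjusted p = 0.000219). Podxl, the podocalyxin of epithelial and pluripotent cells, had 1 count in all of bulk MEF and 4.29 to 12 CPM in iPS (edgeR adjusted p = 0.000206). Evpl had 3 counts in all of bulk MEF and 8.37, 65.2, 6.28 and 29.7 CPM in iPS (edgeR adjusted p = 0.000452).

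Lower in iPS were Tgm2, at 57.0, 68.0, 86.3 and 86.2 CPM in bulk MEF and 20.8, 12.2, 16.9 and 6.36 CPM in iPS (-2.70 ± 0.41, edgeR adjusted p = 0.00054), and Eef2k, at 26.1 to 44.6 CPM and 3.17 to 17.1 CPM (-2.36 ± 0.51, edgeR adjusted p = 0.00375). The groups of neither gene overlapped. Cd109, a surface glycoprotein that binds TGF-beta, fell from 10.9 to 17.7 CPM to 1.41 to 3.47 CPM (-3.02 ± 0.51, edgeR adjusted p = 0.000919). Mtap2 (-3.63 ± 0.79, 0.00389) and S100a16 (-3.29 ± 0.74, 0.00466) were also lower by edgeR. Fhdc1, with 3 counts in all of iPS, was the sixth (edgeR adjusted p = 0.000721). These 12 named genes passed in all 13 other settings. Of all 43 calls, 23 did (14 higher and 9 lower).

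The rule did not look at GMP, and the label of high only in fast MEF does not hold there for every gene. In 32 of the 142 genes (22.5%) the mean of fast or slow GMP was 50 CPM or more. That share was 20.4% over 20404 genes with counts and 66.8% over the 3610 genes at 50 CPM or more in fast MEF. In 12 genes (8.45%, against 38.2% of the 3610) a GMP mean was above the fast MEF mean. They were Hmha1, Coro2a, Gm2a, Celsr2, Hopx, Capn5, Rassf2, Atxn3, Kiss1r, Nfe2l3, Alox8 and Miat. Fast MEF stayed at least 6 times above each GMP mean plus 0.5 CPM in 97 genes, and 67 genes were under 10 CPM in both GMP groups. Neither count was made over all genes, so nothing is read from them. By role, 8 of 21 signalling genes, 4 of 10 cytoskeleton genes and 1 of 23 barrier genes reached 50 CPM in GMP.

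Hmha1 was highest, at 336, 398, 2218, 1301 and 168 CPM in fast GMP and 3685, 1153 and 39.7 CPM in slow GMP. It was at 50 CPM or more in 7 of the 8 GMP libraries, and 6 of them exceeded its fast MEF maximum of 314 CPM. Coro2a, a coronin that binds actin, held 66.7, 414, 187, 166 and 492 CPM in fast GMP and 34.5, 297 and 146 CPM in slow GMP, against 34.1 to 75.6 CPM in fast MEF. Atp2a3 held 27.2 to 190 CPM in fast GMP and 60.4 to 426 CPM in slow GMP, all of them under its fast MEF level. Gm2a held 101, 114, 80.1, 15.1 and 27.4 CPM in fast GMP and 350, 85.6 and 305 CPM in slow GMP. Of these 8 libraries, 2 lay above the fast MEF range of 161 to 275 CPM and 6 below it.

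Other GMP means came from single libraries. Celsr2 held 1136 CPM in fast GMP replicate 5 and 284 CPM in slow GMP replicate 1, and 5.62 to 60.4 CPM in the other 6. Hopx held 1008 CPM in fast GMP replicate 5 and at most 105 CPM elsewhere in GMP. Kiss1r had 675 CPM in fast GMP replicate 1 and at most 1.91 CPM in the other 4, and Nfe2l3 had 589 CPM in fast GMP replicate 4 and at most 0.447 CPM in the other 4. Of the 32 genes, 6 reached 50 CPM in 1 GMP library, 15 in 2 or 3 and 11 in 4 or more. Fast GMP replicate 1, in which 18402 genes had a count (9380 to 14168 in the remaining 7 GMP libraries), was the highest fast GMP library for 99 of the 142 genes. That share was not counted over all genes, so the 99 is not read as a trait of the 142. Without fast GMP replicate 1, 28 genes reached 50 CPM, and 11 were above fast MEF.

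Fast and slow GMP were then compared, to see whether the genes followed cycling speed in a second cell type. Of 69 genes tested with edgeR, none passed the adjusted threshold, and none of all 10057 genes did (0.0%). At an unadjusted p under 0.05 there were 8 of the 69 (2 higher in fast GMP) and 742 of all genes, and the lowest adjusted p among the 69 was 0.662. DESeq2 called none of the 142 genes, and 28 higher and 13 lower of all 20406. The fit of all 24 libraries called 2 of the 142, Ammecr1 and Pitpnm3, and 173 higher and 212 lower of all 15813. GMP libraries of 1 group differed widely, as the values above show, and edgeR on the GMP libraries alone detected no difference at this depth and spread. That does not show that the genes were alike in fast and slow GMP.

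**Figure D5:**
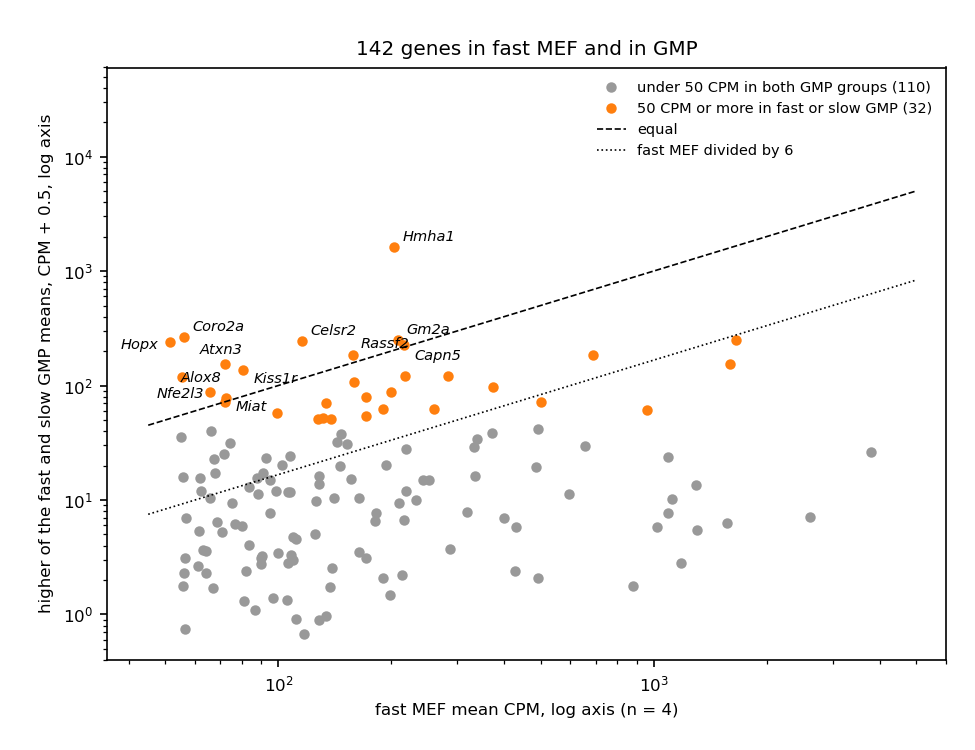
Higher of the fast GMP and slow GMP means against the fast MEF mean, CPM on log axes, for the 142 genes. Orange marks the 32 genes at 50 CPM or more in GMP, lines mark equal means and fast MEF divided by 6, and the 12 labelled genes lie above equality.

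Of the genes of 11 fixed lists, 11 were among the 142, including Sfn and S100a14 (basal epidermis), Evpl and Alox12b (cornified envelope), Ehf and Esrp2 (epithelial transcription factors), Cd24a and Bspry (simple epithelium surface), and Mtap2 and Nefl (neuronal). The other list genes were tested between fast and slow MEF. The lists matched 239 genes, and 95 of them, members included, had counts enough for this test. The rest were too low in both groups. A gene near 0 in slow MEF passes that filter only through fast MEF, where it is high, so the shares called higher are not independent of the filter. Of 84 tested with edgeR, 42 were higher in fast MEF and 9 lower, while 14.4% and 17.3% of all 11742 genes tested were (31.7% in either direction). Against bulk MEF, with the same fast MEF libraries, 42 of 83 were higher and 13 lower, while 16.5% and 18.4% of 11335 were (34.9% in either direction). One of them, Crb3, had met the limits of the rule and was left out by symbol, so its call follows from values the rule used. Without it 41 of 83 were higher than in slow MEF and 41 of 82 higher than in bulk MEF, with 9 and 13 lower. The lists were written with earlier results of these samples known, so the counts are a description of them. Their median log2 fold change between fast and slow MEF was 2.95 (2.77 without Crb3), against -0.11 over all genes.

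Of simple epithelium surface genes, 12 of 15 tested were higher in fast than slow MEF and none lower. Their median log2 fold change was 5.16 (11 of 14 and 5.04 without Crb3). The list matched 26 genes, and those near 0 in slow MEF were tested only through fast MEF. The cadherin of epithelial junctions, Cdh1, had 216, 310, 260 and 255 CPM in fast MEF and 0.251, 6.83, 4.81 and 0.585 CPM in slow MEF (6.06 ± 0.87, edgeR adjusted p = 0.000634). Lsr, a tricellular junction receptor, had 131, 103, 69.0 and 110 CPM and at most 2.01 CPM in slow MEF (6.25 ± 0.69, edgeR adjusted p = 0.000158). No fast MEF library of either gene came near slow MEF. The list was not particular to fast MEF. Between iPS and bulk MEF, 12 of 15 tested genes outside the members were higher in iPS and none lower. Over all genes tested, 24.1% were higher and 23.3% lower there. Cdh1 held 176, 93.9, 76.3 and 78.1 CPM in iPS. Ap1m2, the epithelial sorting adaptor subunit, differed by 6.80 ± 0.95 (edgeR adjusted p = 0.000552). Smagp, a small adhesion protein, held 19.7 to 32.8 CPM in fast MEF (edgeR adjusted p = 0.00019).

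The basal epidermis list split, with 7 of 13 higher and 3 lower. Fgfbp1, a carrier of fibroblast growth factors, rose by 6.25 ± 1.22 (edgeR adjusted p = 0.0034), and Lypd3 had 2.84 to 10.4 CPM in fast MEF and no count in slow MEF (edgeR adjusted p = 0.00304). P-cadherin, Cdh3, went the other way. It had 10.7, 9.98, 4.74 and 5.64 CPM in fast MEF and 88.6, 126, 89.1 and 55.8 CPM in slow MEF (-3.86 ± 0.42, edgeR adjusted p = 0.000138). The cornified envelope list matched 36 genes, most of them too low to test. Of 10 tested outside the members, 6 were higher and 1 lower. Among the higher were Tgm3 (6.64 ± 0.85, edgeR adjusted p = 0.000327), Krtdap (4.68 ± 0.84, 0.00225), Lgals7 (5.82 ± 1.45, 0.0119) and Scel (3.88 ± 0.99, 0.0134).

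Of 12 epithelial transcription factors, 6 were higher and none lower. Tfap2c, the AP-2 gamma factor of epidermis and trophoblast, had 75.6, 69.0, 225 and 51.6 CPM in fast MEF (6.09 ± 0.96, edgeR adjusted p = 0.00112), and 160 CPM in iPS. Esrp1, the partner of the member Esrp2, rose by 6.17 ± 1.20 (edgeR adjusted p = 0.00347) and Ovol1 by 3.33 ± 0.68 (edgeR adjusted p = 0.0044). Zfp750, a factor of late epidermal differentiation, held 1.35 to 9.97 CPM in fast MEF (edgeR adjusted p = 0.00662). Neuronal genes gave 6 higher and 2 lower of 12 tested. Lower were Gap43 (-3.87 ± 1.11, edgeR adjusted p = 0.0225) and Cplx2 (-2.83 ± 0.69, 0.0107). Among the higher, Rbfox3 (edgeR adjusted p = 0.0197) drew most of its mean from replicate 3, at 2.10, 3.89, 60.5 and 4.34 CPM in fast MEF. Tubb3, neuronal beta tubulin, had 3725, 3223, 3832 and 3078 CPM in fast MEF and 395, 340, 321 and 601 CPM in slow MEF (2.77 ± 0.25, edgeR adjusted p = 5.4e-05). Uchl1, a neuronal ubiquitin hydrolase, rose by 4.61 ± 0.75 (edgeR adjusted p = 0.00133). The autonomic neuron factor Phox2a had 23.5, 14.7, 2.03 and 24.7 CPM in fast MEF and no count in slow MEF (edgeR adjusted p = 0.00189). Against bulk MEF Phox2a missed the threshold (edgeR adjusted p = 0.189).

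Signalling lists were mixed. Of 8 EGF family genes, Erbb3 (5.11 ± 0.99, edgeR adjusted p = 0.00328) and Btc (4.16 ± 1.16, 0.0196) were higher in fast MEF and the ligand Hbegf was lower (-2.31 ± 0.56, 0.0106). The receptor Egfr had a log2 fold change of -1.34 ± 0.47 and missed the threshold (edgeR adjusted p = 0.052), although it passed without fast MEF replicate 3 (adjusted p = 0.00866) or slow MEF replicate 4. Of 6 Wnt ligands, Wnt7a (4.09 ± 1.20, edgeR adjusted p = 0.0248) and Wnt7b (4.15 ± 1.32, 0.0355) were higher, and Wnt4 (-3.01 ± 0.49, 0.00133) and Wnt5a (-4.41 ± 0.34, 2.5e-05) lower. Wnt5a, a ligand of non-canonical signalling, had 8.38 to 19.0 CPM in fast MEF and 165 to 261 CPM in slow MEF, well apart. The call of Btc failed when fast MEF library 2 or slow MEF library 1 or 2 was left out. For Wnt7a these were fast MEF libraries 1 and 4 and slow MEF libraries 2 and 4, and for Wnt7b fast MEF library 3 and slow MEF libraries 2, 3 and 4. Of 2 germ layer genes tested, Gata4 was higher (3.84 ± 1.10, edgeR adjusted p = 0.0222), a call lost without slow MEF replicate 4 or fast MEF replicate 3. None of 2 germ line and 4 muscle genes passed.

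Some of the 142 genes lie side by side. In the RefSeq gene order of GRCm38.p6, 4 pairs were direct neighbours: Alox12b and Alox8, S100a14 and S100a16, Arrb1 and Gm4980, and Trim29 and Pvrl1. None of these pairs overlap. Another 5 pairs had 1 or 2 genes between them: Plek2 and Plekhh1, Arc and Psca, Psca and Slurp1, Ehf and Abtb2, and Kcne1l and Ammecr1. The last pair were both highest in fast MEF replicate 3, at 324 and 767 CPM. Of 68 nearest neighbours of the 17 genes that rested on 1 library, 3 were themselves over 3 times the other fast MEF libraries plus 0.5 CPM in that library. They were Rgag1 (3.38 CPM) beside Ammecr1, Nr1h4 (9.70 CPM) beside Ano4 and Tecpr1 (56.6 CPM) beside Bhlha15.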

How the data were processed

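RNA was counted in 24 mouse libraries. The authors deposited whole-number read counts without normalization for 23283 gene symbols, 1708 of them at 0 in every library. CASAVA 1.8.2, TopHat2 2.0.4, HTSeq and build mm9 were used, per the submitters' processing notes. What each tool did, with which annotation and strand setting, is not given in the sources used here, so reads of overlapping, antisense or near-identical genes cannot be told apart.

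CPM was the count over the column sum without Rn45s and Lars2, scaled to the same total in every library. The rule left out symbols that start with Krt, Col, Cldn, Dsc, Dsg, Pkp, Stmn or Hox and 13 single genes. Its members, the gene lists and the marker lists were chosen with earlier results of these data known, and roles were assigned by hand from general knowledge. Of the 142 symbols, 130 matched a RefSeq symbol, 10 a synonym and 2 (AI848285 and Aim1) neither.

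Groups were compared with edgeR 4.0.16 in R 4.3.3 (quasi-likelihood, robust, with filterByExpr and TMM, 2-sided), using only the libraries of the groups compared, without a block. P-values were adjusted by Benjamini-Hochberg over all genes tested, with a threshold of 0.05. No fold is given where a group held 3 counts or fewer. The tests were tried on simulated data with genes changed 4-fold or 16-fold. Fast against slow GMP recovered 0 of 90 and 0 of 94 of them. Slow against bulk MEF recovered 27 of 98 and 83 of 95, and iPS against bulk MEF 32 of 100 and 76 of 95. Fast against slow MEF recovered 23 of 98 and 83 of 98, and fast against bulk MEF 43 of 100 and 87 of 97. Most 4-fold changes were thus missed. PCR-amplified reads are not independent molecules, so counts carry more error than counting alone.

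Genes were named by a rule: the 20 highest members, members on a list, the 5 most uneven and 5 most even members, up to 6 calls per direction, the 3 genes on each side of a limit, up to 6 members highest in GMP, up to 4 other genes per list by p, and adjacent members. A few of them are not reported here. Other genes named were chosen after their values were seen. Alternatives were other limits, group medians, TMM factors or full column sums in the rule, and, in the tests, DESeq2 1.42.0 or its size factors, no filter on low counts, a replicate block, all 24 libraries in 1 fit and each library left out. Tables and plots used Python 3.11.15, numpy 2.4.6, pandas 2.3.3 and matplotlib 3.10.9.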

Additional observations from a re-analysis of the deposited data

Results flagged for a closer look

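In each group of 4 or 5 libraries, a value was marked when its gap to the nearest other library, over the group's whole range, exceeded Dixon's 95% critical value. Chance marks about 1 in 20 groups. In fast MEF, 25 of the 142 genes were marked, 14 of them with replicate 3 as the highest library. Over the other groups the counts were 72 genes in fast GMP, 28 in slow MEF, 27 in iPS and 33 in bulk MEF. The marks were not counted over all genes, so these counts are not read as a trait of the 142.

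Among the genes the naming rule took, replicate 3 stood apart in Mid1 (6229 CPM), Sh3tc1 (3683 CPM), Wee1 (2591 CPM), Cacng5 (761 CPM), Ano4 (436 CPM) and Kcne1l (324 CPM). Replicate 1 stood apart in 1110018G07Rik (5072 CPM). Replicate 4 stood apart in Wwc1 (186 CPM) and Nfatc2 (95.1 CPM), both near a limit of the rule. The summed level of the 142 genes had its highest library apart in bulk MEF (1254 CPM) and in iPS (2203 CPM), far under the lowest fast MEF sum of 37184 CPM.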

How the results depend on the processing

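The number of genes that met the rule was 219 at a level limit of 20 CPM and 91 at 100 CPM, against 142 at 50 CPM. It was 204 and 95 at fold limits of 4 and 10, 125 with TMM factors, 139 with full column sums, 131 with group medians (119 of them shared with the 142) and 137 to 158 with 1 library left out. With group medians, and again without fast MEF replicate 3, the smallest fold fell under 1 for Ano4 (0.863 and 0.5375), Cacng5 (0 and 0), Kcne1l (0.6792 and 0.2352), Mid1 (0.8933 and 0.5442) and Wee1 (0.374 and 0.3079), because 1 library carried their mean. With 1 library left out their folds reached up to 201 for Ano4, 371 for Cacng5, 145 for Kcne1l, 20.4 for Mid1 and 20.6 for Wee1. The fold of 1110018G07Rik was 1.33 without replicate 1 and that of Sh3tc1 was 2.73 without replicate 3.

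Calls among the 142 genes in slow against bulk MEF numbered 10, with 39 by DESeq2, 21 without a filter on low counts, 6 in the fit of all 24 libraries and 7 to 22 with 1 library left out (22 without slow MEF replicate 1). Genes tested numbered 86 in the main test and 142 with DESeq2, without the filter or with all 24 libraries. The cause of the spread was not tested. In iPS against bulk MEF the 43 calls ranged from 34 to 60, and 36 to 47 with 1 library left out. There 97 genes were tested in the main test and 142 in those same settings. In fast against slow GMP there were 0 calls, 2 with all 24 libraries in the fit, and 0 with any library left out. Genes at 50 CPM, or at the fast MEF mean over 6, in GMP numbered 49, and 43 to 50 with 1 library left out.

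For list genes outside the rule, the 51 calls in fast against slow MEF became 29 with all 24 libraries in the fit, where Btc, Gata4, Hbegf, Krtdap, Lgals7, Ovol1, Scel, Wnt4, Wnt7a and Wnt7b were lost, and 45 to 55 with 1 library left out. The 55 calls in fast against bulk MEF ranged from 44 to 79, and 54 to 67 with 1 library left out. Of genes without a call, 4 changed sign with 1 library left out. Their log2 fold changes ran from -4.74 (without fast MEF replicate 3) to 1.72 for Ttn and from -0.29 (without fast MEF replicate 2; -0.05 without slow MEF replicate 4) to 1.94 for Rnf17. They ran from -0.91 to 0.30 (without slow MEF replicate 2) for Myl4 and from -0.82 to 0.66 (without slow MEF replicate 1) for Tdrd1.

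Groups share replicate numbers, but deviations of same-numbered libraries correlated at -0.051 to 0.078, so the numbers were not taken to pair them. With a replicate block the calls were 0 in fast against slow GMP, 7 in slow against bulk MEF and 38 in iPS against bulk MEF among the 142 genes, and 47 in fast against slow MEF and 64 in fast against bulk MEF among list genes. Under the block Myl4 (0.79), Tdrd1 (0.12) and Ttn (-3.35), none of them called, changed sign. Totals were lowest in GMP, at 2098846 to 4411526 counts.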
